A study of Danio rerio with 40 samples.

Results

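Sperm small RNAs were followed through a change of social environment in the High-first line of a zebrafish experiment, in which males lived under high sperm competition first (High1) and under low sperm competition afterwards (Low2). Members were taken by the column prefix of the deposited tables, which gave 19 of the 39 libraries of the miRNA table (10 High1 and 9 Low2) and 12 of the 24 libraries of the piRNA table (6 High1 and 6 Low2). All males were fish of the AB wild-type strain, and the study names no transgene or deletion. The study sampled each male after both treatments, so High1 and Low2 libraries are repeat samples of the same males, which the model below treats as independent because the labels do not say which libraries share a male. A High tank held 2 males and 1 female, a Low tank held 1 male and 2 females, and each treatment lasted 2 weeks, so High1 and Low2 differ in the order of sampling as well as in the company of the males, and these cannot be told apart. The other 20 miRNA and 12 piRNA libraries belong to the Low-first line, in which Low1 was followed by High2, and served here to share the estimate of the spread and for 1 comparison between the lines.

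MicroRNAs guide Argonaute proteins to matching messenger RNAs and lower their translation or stability, and sperm carries a small store of them to the egg. PIWI-interacting RNAs (piRNAs) are the other main small RNA class of the animal germ line. They are cut from long transcripts of genomic loci called piRNA clusters, bind PIWI proteins, and silence transposable elements. In zebrafish, miR-430 is best known from the embryo, where it clears maternal messages, and the let-7 family from developmental timing and cell differentiation.

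The values below are normalised reads, which are read counts divided by a size factor for each library, and differences are on the scale of log2(normalised reads + 4), which understates the difference of features with few reads. Total miRNA reads were 742784 to 5600401 per library in High1 and 133035 to 5303390 in Low2, where libraries 2 and 3 had fewer than 500000. Counts summed over piRNA clusters were 17047635 to 56435023 in High1 and 5983071 to 38109310 in Low2. A read that matches several clusters may be counted in each, so these sums are not numbers of distinct reads. Shares of reads given for clusters below are shares of this sum after normalisation. The public treatment label reads High2 for 8 of the 9 Low2 libraries, so the groups rest on the column names and the study's account of them, and 1 more Low2 sample was not analysed here. For libraries 9 and 10 of High1 and library 3 of Low2 the number or the treatment label is in doubt, and the counts of calls were also made without them. The 4 High-first libraries of sequencing pool 5 (High1 7 and 8, Low2 6 and 7) stood apart in the miRNA table. They took the 4 highest values of the first principal component (31.4% of the variance). On that of the piRNA table (40.0%), High1 1 and Low2 3 (both of pool 2) stood apart. Results given below without pool 5 leave out its High-first libraries only, and the Low-first libraries of pool 5 stayed in the fit. In bulk sperm, a lower share of one cell type and less RNA per cell cannot be told apart.

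No miRNA was called different between Low2 and High1. In the limma fit to all 4 groups, 0 of 346 miRNAs (0%) passed an adjusted p of 0.05, with a smallest adjusted p of 0.993, and 3 of 346 (0.867%) had an unadjusted p under 0.05. The limma-voom model of the recovered reads also called 0, with 1 at an unadjusted p under 0.05. The estimate was higher in Low2 for 189 miRNAs and lower for 154, and its median was 0.03. Leaving out 1 library at a time gave 1 (without High1 5) to 7 at an unadjusted p under 0.05 and no call. The groups overlapped in all 346 (0% did not), and the SD within groups was larger than the difference in 332. The 95% confidence interval lay within a 2-fold change in either direction for 235 of the 346 (67.9%), of which 94 had a mean of at least 100 normalised reads. For miRNAs with few reads the added 4 narrows the interval, so it does not exclude a 2-fold change in their reads. In the other 111 a change of 2-fold or more was not excluded at this depth and number of males.

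**Figure D1:**
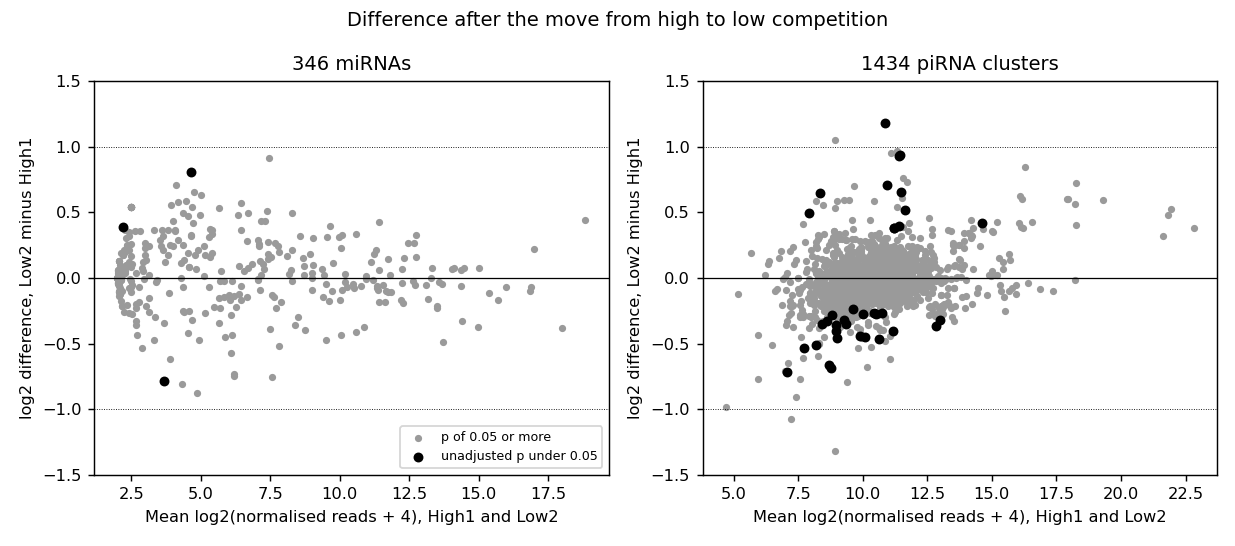
Difference between Low2 and High1 (y axis, log2) against mean level over both groups (x axis, mean log2 of normalised reads + 4) for 346 miRNAs and 1434 piRNA clusters, with 1 point per feature. Black points have an unadjusted p under 0.05 (3 miRNAs and 36 clusters), dotted lines mark a 2-fold difference, and none passed the adjusted threshold.

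The 3 miRNAs with an unadjusted p under 0.05 were all of low abundance. The arm dre-miR-25-5p, the less abundant arm of a miRNA of the miR-17-92 type, had 6.92, 12.1 and 36.1 normalised reads (lowest, median and highest) in High1 and 0, 6.72 and 19.9 in Low2. Its log2 difference was -0.79 (95% interval -1.47 to -0.11, limma p = 0.0248, adjusted p = 0.993), and 6 of the 9 Low2 libraries lay below every High1 library. Among these, the shallow libraries Low2 2 and Low2 3 had 0, where 1 read was worth 4.16 and 12.4 normalised reads. The other arm, dre-miR-25-3p, was the 9th most abundant miRNA, with a median of 33743 in High1 and 32657 in Low2 and a difference of 0.08 (-0.39 to 0.55). The groups overlapped for both arms.

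The arm dre-miR-455-2-5p had 3.50, 16.5 and 30.9 normalised reads in High1 and 7.78, 38.6 and 74.8 in Low2. Its difference was 0.81 (0.01 to 1.60, limma p = 0.0469, adjusted p = 0.993), and 5 of 9 Low2 libraries lay above every High1 library. Among these were the shallowest libraries, Low2 2, 3 and 7, at 74.8, 49.6 and 70.4, where 1 read was worth 4.16, 12.4 and 5.87 normalised reads. The third, dre-miR-204-3p, rested on 2 reads in all 10 High1 libraries together and 4 reads in all 9 Low2 libraries, no Low2 library having more than 1. Its difference was 0.38 (0.04 to 0.73, p = 0.0297, adjusted p = 0.993), and the single read of the shallow library Low2 3 was worth 12.4 normalised reads.

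The most abundant miRNA of these sperm libraries was dre-miR-2189, which had 74016, 483382 and 1121430 normalised reads in High1 and 191069, 561019 and 1440920 in Low2. The groups overlapped over most of this range, and the difference of 0.44 had an interval from -0.57 to 1.45. The next, dre-let-7a, had 172206, 308358 and 594955 in High1 and 146534, 265797 and 316327 in Low2. The 4 highest of the 19 libraries were High1 libraries and the 3 lowest were Low2 libraries, the groups overlapping between them. Its difference was -0.38 (-0.78 to 0.03, p = 0.0654, adjusted p = 0.993), and the interval excluded a 2-fold change in either direction.

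For most of the other abundant miRNAs the interval was narrow. The miRNA dre-miR-100-5p had 87262 to 155190 in High1 and 93490 to 155017 in Low2, with a difference of -0.07 (-0.38 to 0.24). For dre-miR-22a-3p the ranges were 98312 to 149627 and 75150 to 158322, and the difference was -0.10 (-0.43 to 0.24). For dre-miR-21, known from inflammation and injury, the medians were 61326 and 62809 and the difference was -0.07 (-0.45 to 0.32), High1 4 alone having 190858. These 3 intervals exclude a change of 2-fold in either direction. The same holds for dre-miR-92a-3p (0.22, -0.48 to 0.93), dre-let-7g (-0.17, -0.70 to 0.35) and dre-miR-128-3p (-0.11, -0.54 to 0.31), but not for dre-let-7f (-0.38, -1.06 to 0.31).

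As a family, let-7 had 9 members with a lower estimate in Low2 and 2 with a higher one, the last being dre-let-7c-3p and dre-let-7d-3p, which share the same values. The median over the 11 members was -0.17, against 0.03 over all miRNAs, and no member passed the test. Let-7 reads took 18.2% to 46.0% of the miRNA reads of a High1 library (median 23.9%) and 13.0% to 28.1% of a Low2 library (median 18.3%). The highest share, 46.0%, was that of High1 5, and the next was 30.7%. The mean share was 6.39 percentage points lower in Low2 (exact permutation test over libraries, two-sided, p = 0.0568, adjusted p = 0.880 over 32 library values). By the same test the difference was -5.19 points without the libraries of doubtful label (p = 0.201) and -4.97 in libraries of at least 500000 reads (p = 0.189). Without pool 5 it was -8.04 (p = 0.0496, adjusted p = 0.793). The lowest estimate of the family was that of dre-let-7b, with 5928, 15007 and 38823 in High1 and 8109, 12173 and 13685 in Low2. All 9 Low2 libraries lay below the High1 median, while 5 of 10 High1 libraries lay above every Low2 library. The difference was -0.48 (-1.01 to 0.04, p = 0.0688, adjusted p = 0.993).

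**Figure D2:**
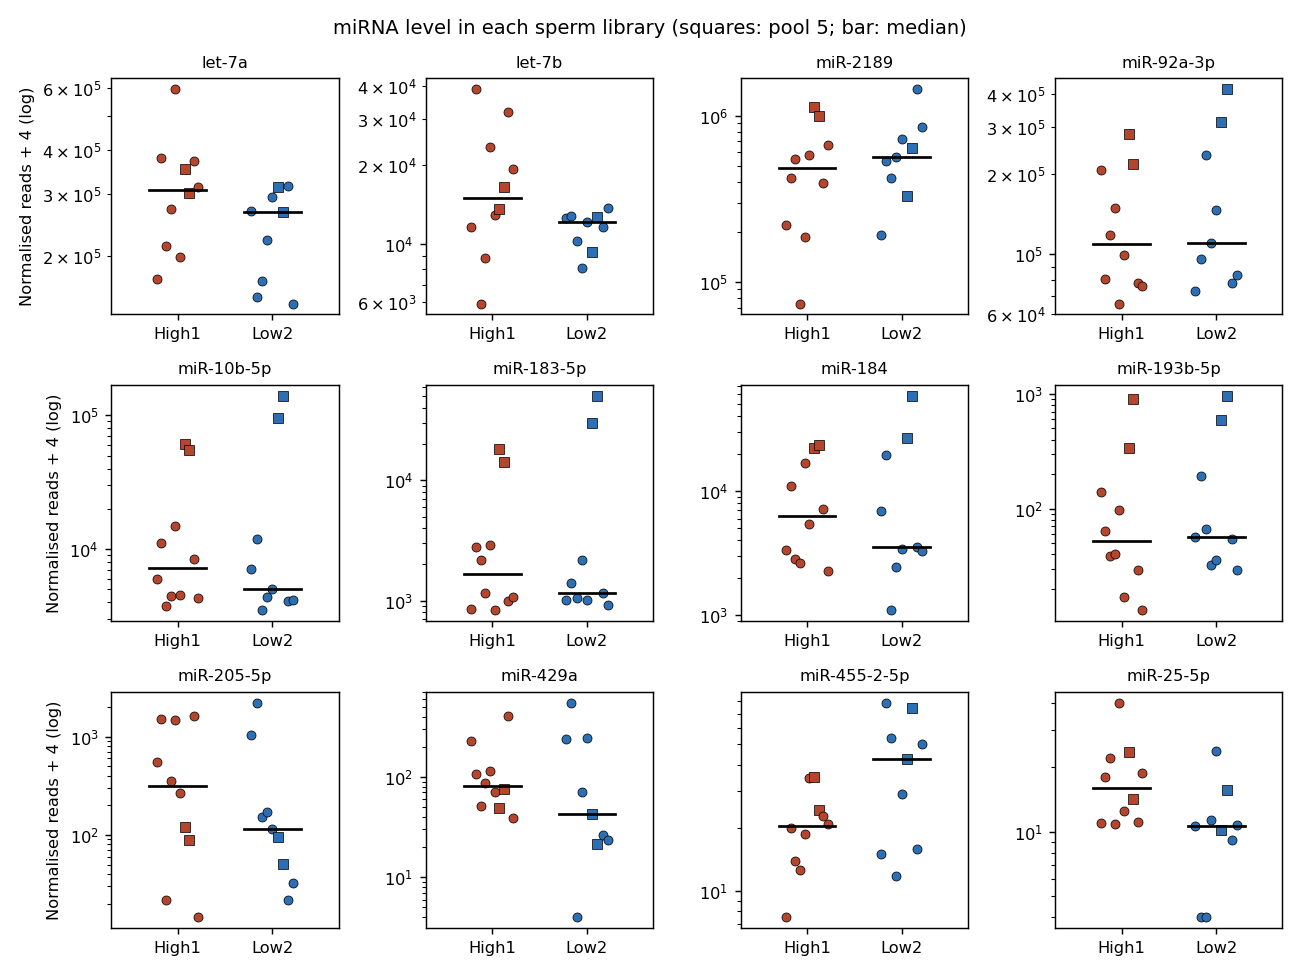
Level of 12 miRNAs in each of the 10 High1 and 9 Low2 libraries (y axis, normalised reads + 4 on a log scale), with bars at the median. Squares are the 4 libraries of pool 5, which lie above the other 15 for dre-miR-10b-5p, dre-miR-183-5p, dre-miR-184 and dre-miR-193b-5p in both groups, and the groups overlap for every miRNA shown.

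The 7 miRNAs that the study singles out in other comparisons had no difference beyond their spread, and 6 of them were higher in all 4 libraries of pool 5 than in the other 15. The miRNA dre-miR-10b-5p, encoded in a Hox cluster, had 61358 and 55414 normalised reads in High1 7 and 8 and 96101 and 139181 in Low2 6 and 7, against 3487 to 14796 in the other 15 libraries. Its difference was 0.07 (-1.04 to 1.19), and -0.28 without pool 5, where the 8 High1 libraries had a median of 5252 and the 7 Low2 libraries 4356. For dre-miR-183-5p, a miRNA of sensory hair cells and photoreceptors, pool 5 held 14217 to 50150 and the others 827 to 2916. Its difference was 0.18 (-1.07 to 1.43), and -0.23 without pool 5.

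The same 4 libraries were highest for dre-miR-129-5p (6671 to 25313 against 1457 to 3985), dre-miR-181a-5-3p (2218 to 6764 against 272 to 1370), dre-miR-184 (22023 to 58169 against 1092 to 19551) and dre-miR-193b-5p (333 to 956 against 9.01 to 187). The differences between Low2 and High1 were 0.14, 0.02, -0.05 and 0.48 in that order, each with an interval on both sides of 0. Without pool 5 they were -0.08, -0.28, -0.36 and 0.38. The last of the 7, dre-miR-200a-5p of epithelial cells, had 18.0 to 835 in High1 and 23.9 to 1398 in Low2, and its difference of 0.13 (-1.29 to 1.55) became -0.44 without pool 5. In all, 19 of the 346 miRNAs were higher in each of the 4 pool 5 libraries than in any of the other 15, and 7 were lower. Some of the 19 are of the same family, such as dre-miR-10a-5p, dre-miR-10b-5p, dre-miR-10c-5p and dre-miR-10d-5p. Pool 5 holds 2 libraries each of High1 and Low2, and its part in these levels was not tested.

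Among miRNAs with a mean of at least 100 normalised reads, no estimate reached 2-fold. The largest was that of dre-miR-738, with 30.0, 143.3 and 962 normalised reads in High1 and 44.5, 255 and 2594 in Low2. Its 2 highest libraries were High1 1 and Low2 3 of pool 2, and the difference was 0.91 (-0.29 to 2.11). The epithelial miRNAs dre-miR-205-5p (-0.75, -2.55 to 1.04) and dre-miR-429a (-0.75, -2.05 to 0.56) came next. For dre-miR-205-5p the range was 10.6 to 1625 in High1 and 18.0 to 2200 in Low2, where Low2 1 and Low2 2 had 1031 and 2200 and the other 7 at most 166. The muscle miRNA dre-miR-1 (-0.52, SE 0.49) had 2084 in High1 9, a library of doubtful label, and at most 707 elsewhere.

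The remaining large estimates were those of dre-miR-15a-5p (0.51, -0.14 to 1.16), dre-miR-30e-5p (0.50, -0.10 to 1.09), dre-miR-15b-5p (0.49, -0.43 to 1.41), dre-miR-731 (-0.47, -1.19 to 0.25) and dre-miR-725-3p (-0.43, -1.75 to 0.88). For the last, Low2 5 had 5.18 normalised reads where the other 18 libraries had 458.7 to 3503. The pair dre-miR-15a-5p and dre-miR-15b-5p, known for restraint of the cell cycle, had 183.1 to 423 and 197 to 358 in pool 5, against 66.1 to 360 and 34.0 to 136.5 elsewhere.

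No member of the lists of miRNAs by tissue of origin passed the test. Epithelial miRNAs, led by dre-miR-203b-3p and dre-miR-141-3p, took 0.950% to 6.06% of reads in High1 and 1.01% to 9.02% in Low2, with 8 members higher in Low2, 8 lower and a median of 0.01. Blood cell miRNAs took 0.0168% to 0.102% in High1 and 0.0210% to 0.0518% in Low2 (3 higher, 5 lower, median -0.11). Muscle miRNAs took at most 0.160% (3 higher, 5 lower, median -0.01), and neural miRNAs, led by dre-miR-128-3p and dre-miR-9-5p, had medians of 3.46% and 3.54% (14 higher, 15 lower). The gonad miRNA miR-202, known from fish ovary and testis, was present in every library, its 2 arms together taking 0.0345% to 0.400% in High1 and 0.0405% to 0.219% in Low2. No miRNA of these lists defines sperm alone, so the label of the tissue was not checked beyond this.

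Vessel and smooth muscle miRNAs had the lowest median of the tissue lists with more than 2 members, -0.21, with 9 of 11 lower in Low2. Most of the 11 had few reads, and the abundant dre-miR-199-3p had medians of 2832 and 2668 and a difference of -0.07. Sensory and neuroendocrine miRNAs (5 higher, 5 lower, median 0.02) and endoderm miRNAs (5 higher, 4 lower, median 0.12) lay around 0.

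**Figure D3:**
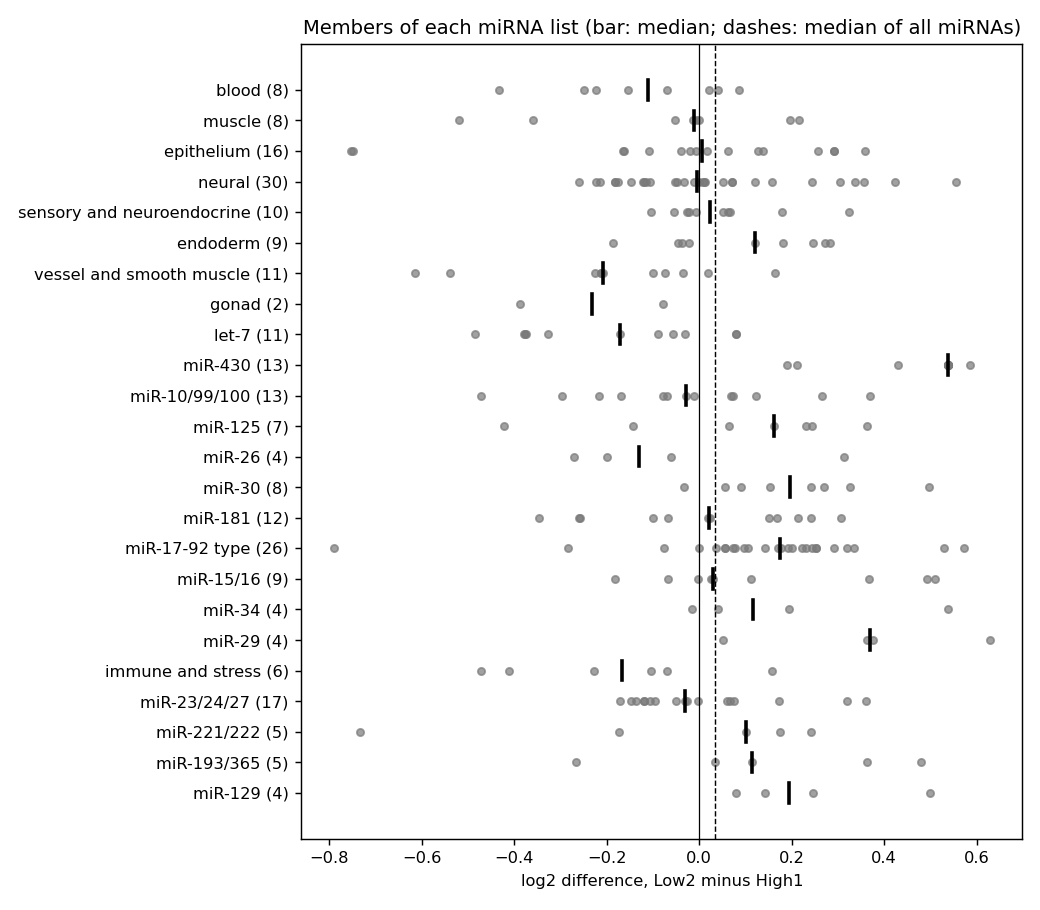
Difference between Low2 and High1 (x axis, log2) of each member of 24 miRNA lists, with the number of members in brackets, black bars at the list median and a dashed line at the median of all 346 miRNAs (0.03). The miR-430 list lies to the right at a median of 0.54, but 9 of its 13 members share 1 set of values.

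Among families, all 13 miR-430 rows had a higher estimate in Low2, with a median of 0.54 (1.08 with a pseudocount of 1). They are 5 distinct sets of values, since 9 of the 5p rows are identical, and their reads were few. The most abundant, dre-miR-430b-3p, had 2.00, 13.7 and 51.9 normalised reads in High1 and 11.2, 21.4 and 54.0 in Low2, a difference of 0.59 (-0.45 to 1.62, p = 0.259, adjusted p = 0.993). Summed over all 13 rows, the share was at most 0.00663% in a High1 library and 0.00902% in a Low2 library. The latter was Low2 3, the shallowest library. The mean of this sum was 0.00218% in High1 and 0.00431% in Low2 (exact permutation test over libraries, two-sided, p = 0.0534, adjusted p = 0.880 over 32 library values). By the same test the difference was 0.00213 percentage points in all libraries and 0.00143 in those of at least 500000 reads (p = 0.167). It was 0.00277 without pool 5 (p = 0.0357, adjusted p = 0.793) and 0.00190 without the libraries of doubtful label (p = 0.0297, adjusted p = 0.950). The sum and its test count the 9 identical rows 9 times, so they do not give the family's share of distinct reads.

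Most miR-17-92 type miRNAs, which promote proliferation, had a higher estimate in Low2 (22 of 26, 3 lower, median 0.17), among them dre-miR-92a-3p with medians of 109040 and 110404. The 1 member of any list with an unadjusted p under 0.05, dre-miR-25-5p, went the other way. The miR-30 list had 7 of 8 higher (median 0.20), and its abundant dre-miR-30e-3p ranged from 2309 to 83458 in High1 and from 2323 to 182040 in Low2 with the pool 5 libraries on top. The miR-29 (4 of 4 higher, median 0.37) and miR-129 (4 of 4 higher, median 0.19) lists hold few reads apart from dre-miR-129-5p. Immune and stress miRNAs had 5 of 6 lower (median -0.17), and the miR-10/99/100 list 8 of 13 lower (median -0.03). The medians of the remaining lists lay between -0.13 (miR-26) and 0.16 (miR-125).

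The number of miRNAs detected was 245 to 305 in High1 and 234 to 307 in Low2, and at the depth of the shallowest library, 133035 reads, the expected number was 204 to 223.3 in High1 and 200 to 234 in Low2. The share of reads in the 10 most abundant miRNAs had a median of 77.6% in High1 and 77.5% in Low2. None of 32 library values in both tables had an adjusted p under 0.05 (exact permutation tests, two-sided), the smallest being 0.880.

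The piRNA table holds 1434 clusters, 532 from a database and 902 predicted by the authors from these libraries, of which 722 lie on 1 strand and 180 on 2. Their median length is 10198 bases, and 19.2% of the 715 predicted on an assembled chromosome overlap a database cluster by at least 1 base, so some loci are counted under more than 1 name. Coordinates are those of GRCz11, from the names in the table. No genome or annotation of that build was used here, so the genes in or near them are not given.

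No piRNA cluster was called either. In limma, 0 of 1434 clusters (0%) passed an adjusted p of 0.05, with a smallest adjusted p of 0.999, while 36 (2.51%) were below 0.05 unadjusted, 12 with higher and 24 with lower values in Low2. Limma-voom called 0 as well, with 32 at an unadjusted p under 0.05. The estimates were split between 708 higher and 726 lower, with a median of -0.00, and 0 clusters (0%) had groups that did not overlap. They ran from -1.32 to 1.18 and were beyond 2-fold for 4 clusters. The intervals were narrower than for miRNAs, and for 1297 clusters (90.4%) they excluded a 2-fold change in either direction. Without High1 1 and Low2 3 the counts were 0 and 42, of which 8 were higher, and leaving out High1 1 alone gave 80 and Low2 3 alone 18.

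The smallest p was that of a cluster predicted on the minus strand at chr8:24392030-24401024. It had 1072, 1202 and 1661 normalised reads in High1 and 749, 916 and 1205 in Low2, and 5 of the 6 Low2 libraries lay below every High1 library. Its difference was -0.45 (-0.76 to -0.13, p = 0.00723, adjusted p = 0.999), and -0.34 without High1 1 and Low2 3. The database cluster at chr19:16984098-16991027 had 367, 391 and 418 in High1 and 249, 303 and 384 in Low2, also with 5 of 6 Low2 libraries below all of High1. Its difference was -0.35 (-0.60 to -0.09, p = 0.00903, adjusted p = 0.999). A predicted cluster on the plus strand at chr19:16982077-16996024 covers the same locus and had a difference of -0.35 (-0.65 to -0.05), so the pair is not independent.

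At chr20:55027005-55035961 the values were 2254, 2503 and 3915 in High1 and 1594, 2113 and 2475 in Low2 (-0.41, -0.72 to -0.09). At chr14:13293014-13299543 they were 468, 575 and 724 and then 320, 465.95 and 531 (-0.36, -0.65 to -0.08), and all 6 Low2 libraries lay below the High1 median. The estimate was more negative at chr17:45193024-45201010 (-0.69, -1.22 to -0.15), where High1 4 had 1038 and both libraries of pool 2 were low, at 261 in High1 1 and 160 in Low2 3. Without these 2 libraries the difference was -0.68 (unadjusted p 0.00144), and without the libraries of doubtful label it was -0.48 (0.0682). The clusters at chr4:39741108-39747997 (-0.66, -1.19 to -0.14) and chr19:36623287-36630794 (-0.51, -0.93 to -0.10) complete the lower side of the 12 smallest p-values.

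On the higher side of the 12 smallest p-values stood 3 loci. Larger rises lay outside these 12, since the 36 clusters with an unadjusted p under 0.05 (limma) reached 1.18, on chromosome 4. A plus-strand cluster at chr20:9891534-9903590 had 1776, 2122 and 2348 normalised reads in High1 and 2022, 2705 and 3750 in Low2, with 4 of 6 Low2 libraries above every High1 library. Its difference was 0.38 (0.08 to 0.69, p = 0.0154, adjusted p = 0.999), and its copy on the alternative haplotype CHR_ALT_CTG20_1_4 had nearly the same values in every library (0.38). A cluster on another haplotype of chromosome 20, CHR_ALT_CTG20_1_11:22552302-22563003, had 1551, 2346 and 2857 and then 2242, 3475 and 8368 (0.66, 0.13 to 1.19). The database cluster at chr10:11973669-11988020 had 1107, 1488 and 2222 and then 1622, 2399 and 6572 (0.71, 0.10 to 1.32). In both of these the highest value was that of Low2 2, a library with a summed cluster count of 7414024, and 4 of 6 Low2 libraries lay above all of High1. All 12 estimates kept their sign under each alternative run for them, but not their size. Without pool 5 the difference was -0.20 at chr14:13293014-13299543 and -0.25 at chr20:55027005-55035961 (unadjusted p 0.139 and 0.108), and without the libraries of doubtful label it was -0.40 at chr4:39741108-39747997 (0.104).

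**Figure D4:**
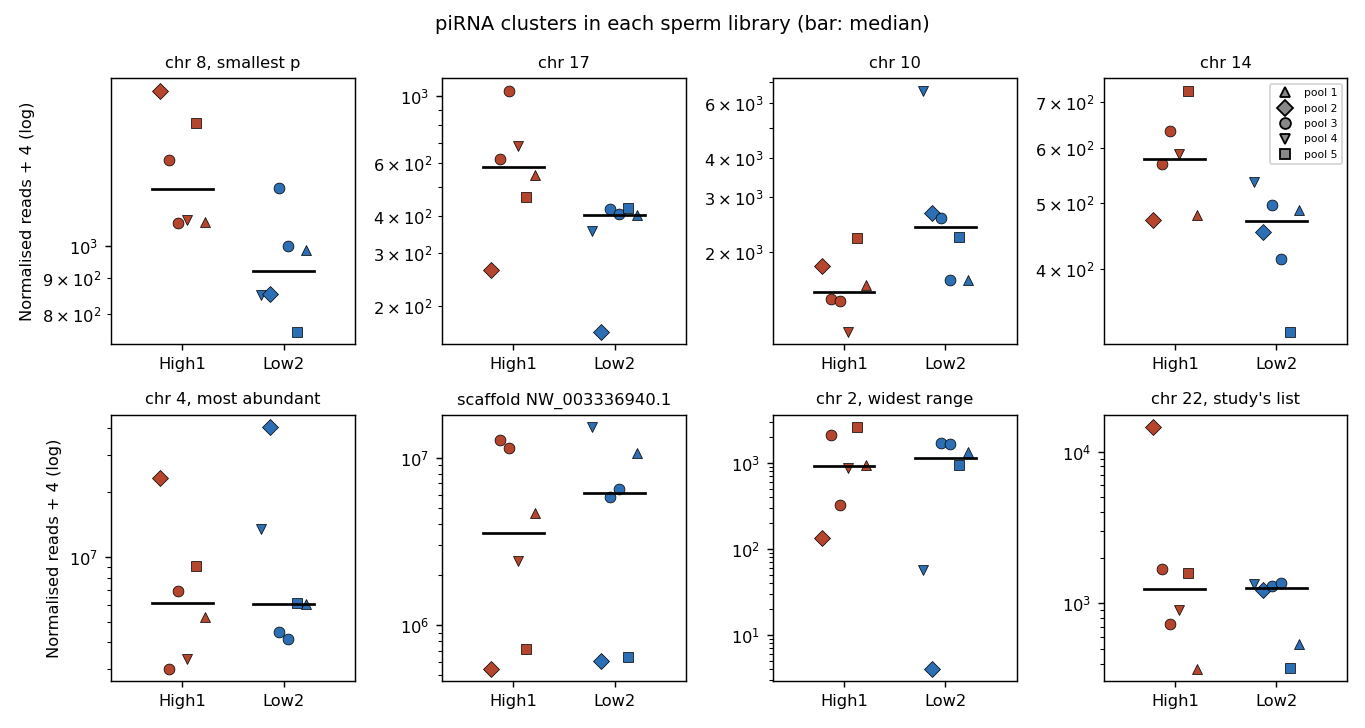
Level of 8 piRNA clusters in each of the 6 High1 and 6 Low2 libraries (y axis, normalised reads + 4 on a log scale), with marker shapes for the sequencing pool and bars at the median. The clusters on chromosomes 8, 17, 10 and 14 are among the 12 smallest p-values, and the cluster on NW_003336940.1 is low in High1 1 and 7 and in Low2 3 and 6.

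A few loci held most of the counts summed over piRNA clusters, and they varied many-fold between libraries of the same group. Reads that match more than 1 of these loci may be counted at each, so their shares may overlap. The database cluster at chr4:55793548-55813463 took a median of 22.5% of reads and had 3007330, 6086630 and 23484000 normalised reads in High1 and 4154080, 6064910 and 40329000 in Low2. The highest libraries were Low2 3 and High1 1, followed by Low2 2 at 13529600, and the difference of 0.38 had an interval from -1.05 to 1.80. The clusters at chr7:4068-8848 (11.9% of reads) and chr4:77550079-77563945 (10.9%) had the same 2 libraries on top, with differences of 0.52 (-0.79 to 1.83) and 0.48 (-0.71 to 1.66). The intervals are too wide to tell a 2-fold change from none.

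The cluster on the unplaced scaffold NW_003336940.1 (bases 510 to 10420) had low and high libraries in both groups. It had 546275 and 719872 normalised reads in High1 1 and 7 and 611013 and 643371 in Low2 3 and 6, while the other 8 libraries had 2394540 to 15177500. Its share of reads ran from 0.638% to 49.3%, and the difference was 0.32 (-1.84 to 2.48). For the other abundant clusters the estimates were 0.59 at NW_003336678.1:1-33253, 0.41 at chr16:15774356-15790983, 0.72 at chr4:34306980-34316570 and 0.57 at NW_001884427.4:76879-82862, each with an interval on both sides of 0. All 8 of the most abundant clusters thus had a higher estimate in Low2. As mean shares of the summed count, NW_003336940.1:510-10420 (20.8% in High1 and 19.6% in Low2) and NW_003336678.1:1-33253 (3.00% and 2.82%) were lower, the others higher. The common direction of the estimates also did not hold without the libraries of doubtful label (High1 10 and Low2 3 in this table). Then chr4:55793548-55813463 and chr16:15774356-15790983 had -0.14 and -0.15, and chr7:4068-8848, chr4:77550079-77563945 and chr4:34306980-34316570 had 0.012, 0.042 and 0.20.

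The widest ranges, chosen after their values were seen, were of 2 kinds. At some loci 1 library stood alone. NW_001878118.5:130002-135683 had 1025 normalised reads in High1 4 and at most 48.1 in the other 11 libraries, and chr15:16512005-16516978 had 0 in Low2 3 and 99.3 to 338 in the others, while chr22:32643431-32648896 was high in High1 1 alone. At the others, libraries of both groups shared the high or the low values. The cluster at chr2:57775001-57780018 had 0 in Low2 3, 52.4 in Low2 2 and 131 in High1 1, and 318 to 2611 in the other 9. At chr5:54887139-54893004 High1 10 and Low2 9, both of pool 1, had 227 and 219.1, and the other 10 had 0 to 95.9. At KN149690.1:143000-149013 the same 2 libraries had 15.5 and 11.9, Low2 3 had 16.0, and the other 9 had 80.8 to 732. At chr4:61779003-61802026 the values were 466142 in High1 7, 428026 in Low2 3 and 362808 in Low2 6, against 10619 to 176322 in the rest. At chr22:1883001-1888613 High1 4 had 742 and Low2 6 had 511, and the other 10 had 15.0 to 160. The groups overlapped at all 8.

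The 6 clusters that the study names in its text showed no difference beyond the spread. The estimate was 0.16 (-0.17 to 0.50) at chr12:14899003-14913024, 0.06 (-0.15 to 0.28) at chr16:14845000-14858022 and 0.02 (-0.30 to 0.35) at chr11:37007002-37018889, and these 3 intervals exclude a 2-fold change. At chr1:57940016-57946585 it was -0.90 (-2.49 to 0.68), with 34.7 to 869 in High1 and 18.3 to 517 in Low2. Without pool 5, whose libraries High1 7 and Low2 6 had the highest and the lowest of these values, it was -0.026. At chr4:52720449-52740603 it was 0.85 (-0.23 to 1.92), with medians of 56645 and 103356, and Low2 2 and Low2 5 on top at 270202 and 204091. At chr22:32643431-32648896 it was -0.68 (-1.85 to 0.50), and -0.10 without High1 1 and Low2 3 but -1.16 without the libraries of doubtful label. High1 1 had 14522 and no other library more than 1691.

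By class, the clusters lay close to the whole table's median of -0.00. The 374 database clusters off chromosome 4 had 150 higher and 224 lower (median -0.07) and 17 with an unadjusted p under 0.05 (4.55%), 6 higher and 11 lower. The 617 clusters predicted on 1 strand off chromosome 4 had 343 higher and 274 lower (median 0.02), with 12 under 0.05. The 309 clusters of chromosome 4, its haplotypes included, took 25.5% to 64.1% of reads in High1 and 35.4% to 66.7% in Low2 and had 150 higher and 159 lower (median -0.01). The 134 clusters predicted on 2 strands off chromosome 4 (median -0.01) and the 163 on alternative haplotypes (median 0.03) did not stand apart. Of the 58 clusters of the study's heatmap, a list the study chose on these samples, 39 were higher and 19 lower (median 0.05), with 1 under 0.05.

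Which libraries of both groups resemble each other was described by the correlation, across features, of their deviations from their group means. Between the 9 Low2 and 10 High1 miRNA libraries, the 19 pairs of the same pool had a median r of 0.36 and the 71 pairs of different pools -0.19. Of the 9 Low2 libraries, 7 had their most similar High1 library in their own pool. In the piRNA table the medians were 0.41 over 8 pairs and -0.10 over 28, and 5 of 6 Low2 libraries had their closest High1 library in their own pool. The closest pairs there were Low2 3 with High1 1 (0.73), Low2 4 with High1 3 (0.72), Low2 9 with High1 10 (0.68) and Low2 6 with High1 7 (0.53), and the same pairs had 0.39, 0.49, 0.66 and 0.69 in the miRNA table. Each r is taken over features of the same libraries, which are not independent points, so these are descriptions. What libraries of the same pool have in common was not tested. The study reports an effect of male identity on sperm miRNA profiles and clustering of piRNA profiles by male. The labels do not say which libraries share a male. Male IDs that the study assigned were not used here, so whether similar libraries come from the same male was not tested.

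**Figure D5:**
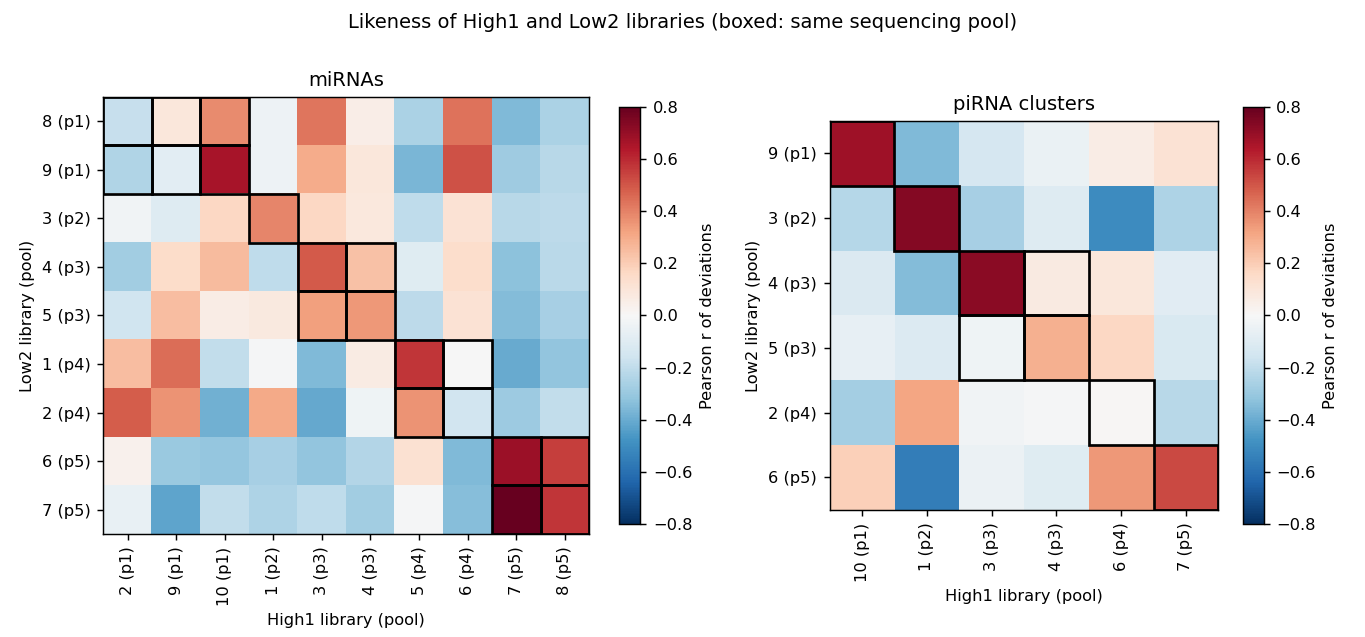
Pearson r across features between the deviations of each Low2 library (rows) and each High1 library (columns) from their group means, in 9 by 10 miRNA and 6 by 6 piRNA libraries ordered by pool, with pairs of the same pool boxed. The boxes hold most of the high values, such as 0.73 for Low2 3 with High1 1 in piRNA clusters.

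The change from High1 to Low2 was last set against the reverse change in the Low-first line, from Low1 to High2, by the interaction term of the same fit. This difference between the lines equals Low1 plus Low2, less High1 and less High2. It is therefore a contrast of low with high competition over both orders of sampling, not of levels between the lines. Of 346 miRNAs, 0 were called (0%) and 4 (1.16%) had an unadjusted p under 0.05 (limma-voom was not run for this difference). They were dre-miR-181d-5p (0.31 in the High-first line and -0.41 in the Low-first line), dre-miR-153b-3p (0.42 and -0.87), dre-miR-2189 (0.44 and -1.003) and dre-miR-457b-5p (-0.35 and 0.83). Each had estimates of opposite sign in the lines, and the adjusted p of the difference was 0.998 for all 4 (limma).

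Of 1434 clusters, 0 were called between the lines (0%), the smallest adjusted p being 0.551, and 8.79% had an unadjusted p below 0.05 (limma). Of these, the difference between the lines was above 0 for 87 and below 0 for 39. The smallest p was that of the database cluster at chr19:16906266-16910931, whose difference was -0.72 in the High-first line and 0.92 in the Low-first line (p = 0.00122, adjusted p = 0.551). The study's cluster at chr16:14845000-14858022 came second, with 0.06 and -0.44 (p = 0.00232, adjusted p = 0.551). With limma's array weights, which give libraries far from their group less weight, 148 of 1434 clusters were called between the lines. The fit without weights called 0, and with weights 0 were called between Low2 and High1. Without High1 1 and Low2 3 the count at an unadjusted p under 0.05 was 240, and without the libraries of doubtful label 67. Pool 5 holds more High2 than Low1 libraries in both tables, so pool and treatment are partly mixed in the difference between the lines.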

How the data were processed

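Small RNA of individual sperm samples was sequenced in pools (NEBNext kit, Illumina HiSeq2500, single-end reads). The authors aligned trimmed reads with PatMaN to mature miRNAs of miRBase and to piRNA clusters from a database or predicted with proTRAC. The deposited log2 values equal log2(reads / size factor + 4), which was read from the values, whose lowest is 2, with size factors from the study's normalisation. The value of 1 read was sought in each library as a unit of which low values are whole multiples within 0.05. All low values met this (100%), which is no separate check, since the unit was chosen by it. The labels name the build GRCz10, while cluster names give GRCz11. Database starts were raised by 1 base.

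Differences were fitted with limma 3.58.1 in R 4.3.3 (trend, all 4 groups, no covariate, Benjamini-Hochberg over all features, threshold 0.05), and library values were tested by exact permutation in Python 3.11.15. The fit was also run on simulated counts, with spread capped at the median over features and no pool or male structure. That run cannot tell how the fit behaves with the spread of these libraries. Libraries come from individual sperm samples of males sampled after both treatments, the labels do not tie libraries to males, and p-values measure the spread between these libraries. Reads carry no molecular identifiers, and reads that match several features may be counted in each.

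Named were miRNAs with an unadjusted p under 0.05, the 12 largest differences at a mean of at least 100 normalised reads, the 10 most abundant, 7 of the study, and the 2 most abundant members of lists where values are given. Named clusters were the 12 smallest p-values, the 8 most abundant and 6 of the study. Members and lists were chosen with earlier results of these data known. Alternatives changed the trend, centring, filter, pseudocount (1), weights, covariate, libraries and model. Leaving out High1 1 and Low2 3 together was chosen after seeing the data, as were the features named for the difference between the lines.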

Additional observations from a re-analysis of the deposited data

Results flagged for a closer look

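Of 176 sets of values of 1 group, 21 had a library whose gap to the nearest other was large against the group's range. Chance flags about 1 in 20 (5%) of sets of normally distributed values. Many of these sets were shares in percent, and the sets share libraries, so the 21 cannot be judged against that rate.

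Among named miRNAs, dre-miR-725-3p had 5.18 normalised reads in Low2 5, against 769 in the next library, and dre-miR-21 had 190858 in High1 4, against 73926. High1 4 also stood apart in the share of immune and stress miRNAs, at 16.8% of reads, as did Low2 1 at 8.10%. Within High1, library 5 was highest for blood miRNAs (0.102%) and for let-7 (46.0%), library 10 for the summed miR-430 rows (0.00663%) and library 3 for miR-34 (0.0755%).

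Both libraries of pool 2 stood apart. The miR-125 share was 1.55% in High1 1 and 3.72% in Low2 3, where dre-miR-125b-5p had 18152 and 49723 normalised reads. High1 1 had the highest share of miR-17-92 type miRNAs within its group (18.9%, against 21.0% in Low2 3) and lay apart on the first principal component of the piRNA clusters (22.9). Low2 3 had 160 normalised reads at chr17:45193024-45201010 and detected 1431 of 1434 clusters, at a summed cluster count of 5983071.

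Within Low2, library 2 was highest for the gonad miRNAs (0.219%), for miR-221 and miR-222 (0.254%), at CHR_ALT_CTG20_1_11:22552302-22563003 (8368) and at chr10:11973669-11988020 (6572). In pool 5, the share of miR-193 and miR-365 was 0.0399% in High1 8, and the miR-129 share was 0.439% in High1 7 and 0.839% in Low2 7. The part of depth or pool in these values was not tested.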

How the results depend on the processing

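Between Low2 and High1, 0 miRNAs and 0 piRNA clusters were called under each alternative run, leaving out each library in turn included (0 to 0). The count of miRNAs at an unadjusted p under 0.05 was 3, and it was 12 with array weights, 16 in libraries of at least 500000 reads, 10 with only High1 and Low2 in the fit and 1 with limma-voom. For clusters it was 36, and 20 without the lowest 25% by mean, 21 with array weights and 13 with only High1 and Low2. Between the lines, array weights called 148 of 1434 clusters, against 0 without weights. The counts at an unadjusted p under 0.05 were then 388 for clusters and 8 for miRNAs (9 with pool as a covariate). With a pseudocount of 1 the miR-430 median was 1.08. Of the values of named features under the alternatives, 314 kept their sign and 22 did not.

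Same-numbered High1 and Low2 libraries had a median r of -0.01 over 9 miRNA pairs, 4 of them above 0.1. The 81 other miRNA pairs had a median of -0.04, 27 of them above 0.1. In the 3 same-numbered piRNA pairs r was -0.26, 0.07 and 0.34. Only 3 of the 9 miRNA pairs share a pool, and r was higher within than between pools, so these values cannot tell whether the numbers are pairs. The labels do not tie the numbers to males, and they are not taken as pairs. With the replicate number as a block 0 were called, with 19 miRNAs and 64 clusters at an unadjusted p under 0.05. The block turned the sign of dre-miR-10b-5p (-0.061), dre-miR-181a-5-3p (-0.10), dre-miR-200a-5p (-0.069), NW_003336940.1:510-10420 (-2.41), chr12:14899003-14913024 (-0.10), chr4:52720449-52740603 (-0.18) and the epithelium share (-0.0137 points) and miR-10/99/100 share (-0.0555).

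Without pool 5 the sign turned for dre-miR-25-3p (-0.087), dre-miR-10b-5p (-0.28), dre-miR-129-5p (-0.076), dre-miR-181a-5-3p (-0.28), dre-miR-183-5p (-0.23), dre-miR-200a-5p (-0.44), the first miRNA component (-1.34), and the shares of sensory (-0.0918 points), miR-10/99/100 (-1.40), miR-17-92 type (-0.00157) and miR-129 miRNAs (-0.0176). Without the libraries of doubtful label it turned for dre-miR-92a-3p (-0.034), dre-miR-184 (0.083), dre-miR-181a-5-3p (-0.051), chr4:55793548-55813463 (-0.14), chr16:15774356-15790983 (-0.15), chr11:37007002-37018889 (-0.039), the first piRNA component (-3.22), the share of the 10 most abundant clusters (-0.574 points), and miR-10/99/100 (-0.0684), miR-125 (-0.147) and miR-17-92 type (-0.623). In libraries of at least 500000 reads it turned for dre-let-7g (0.14), dre-let-7f (0.054), dre-miR-184 (0.088), dre-miR-200a-5p (-0.018), epithelium (-0.567), miR-125 (-0.183) and miR-221 and miR-222 (-0.0200). The cause was not tested. Depth limits rare miRNAs most, since 1 read is worth 12.4 normalised reads in Low2 3.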
